A study of Mus musculus with 14 samples.

Results

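Levels of 6 transcripts were followed in sorted epithelium of the mouse mammary gland. They were those of Esr1 and Pgr, which encode the oestrogen and progesterone receptors, of Foxa1, Cited1 and Tbx3, which encode transcriptional regulators, and of Prom1, which encodes a membrane glycoprotein. The genes were chosen by symbol among the 19057 genes with a named probe, and every probe annotated with one of these symbols was taken, 15 of 45281. RNA was from female FVB/NJ mice that were virgin or at day 12.5 of pregnancy, and leukocytes, endothelial cells and erythroid cells had been gated out of every preparation by CD45, CD31 and TER119. The CD29-high, CD24-positive cells form the MaSC-enriched population, which holds basal cells and mammary stem cell activity, and the CD29-low, CD24-positive cells form the luminal population. Both were sorted to a purity above 90% according to the labels. There were 3 arrays of virgin luminal, 3 of virgin MaSC-enriched, 4 of pregnant luminal and 4 of pregnant MaSC-enriched cells, each with RNA from a pool of mice. The labels count 3 virgin and 4 pregnant pools, without saying which luminal and MaSC-enriched arrays share a pool, and p-values measure the spread between arrays of different pools. The number of mice in a pool and their ages are not given in the sources used here.

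In the mammary gland, oestrogen and progesterone are sensed by a subset of luminal cells that carry both receptors in the nucleus and relay the signal to their neighbours through secreted ligands. Foxa1 opens chromatin at sites where the oestrogen receptor binds, Cited1 is a coactivator that binds the receptor, Tbx3 is a T-box repressor needed for mammary development, and Prom1 marks the surface of hormone-sensing cells in the mouse. During pregnancy progesterone and prolactin drive the growth of alveoli, whose secretory cells as a rule lack these receptors. Each array measured a whole sorted population, so fewer cells of a type and less RNA per cell cannot be told apart in any of the differences that follow.

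RefSeq promoter windows (GRCm38.p6, from 250 bases before to 50 bases after an annotated start) were at hand for 5 of the 6 genes, 9 windows in all, and are shown because the transcripts fell together in pregnant luminal cells. Both strands were searched for 6 motifs: the forkhead core TGTTTAC, the oestrogen response half-site AGGTCA, the progesterone response half-site TGTTCT, the T-box half-site GGTGTGA, the STAT5 motif TTCNNNGAA and the GATA motif AGATAA. Annotated starts of a gene are numbered from the most upstream one in the direction of transcription where there are several. There were 4 matches, none overlapping another, and capitals mark them in the 4 windows that hold one. The Foxa1 window on chromosome 12 (chr12:57546062-57546361, minus strand) holds the forkhead core on the opposite strand, 141 to 135 bases before the start. Start 2 of Esr1 (chr10:4709908-4710207, plus strand) has the STAT5 motif 188 to 180 bases upstream. Start 3 of Cited1 (chrX:102250727-102251026, minus strand) has an oestrogen half-site on the opposite strand 217 to 212 bases upstream. Start 2 of Prom1 (chr5:44094719-44095018, minus strand) has a progesterone half-site 21 to 16 bases upstream.
Foxa1: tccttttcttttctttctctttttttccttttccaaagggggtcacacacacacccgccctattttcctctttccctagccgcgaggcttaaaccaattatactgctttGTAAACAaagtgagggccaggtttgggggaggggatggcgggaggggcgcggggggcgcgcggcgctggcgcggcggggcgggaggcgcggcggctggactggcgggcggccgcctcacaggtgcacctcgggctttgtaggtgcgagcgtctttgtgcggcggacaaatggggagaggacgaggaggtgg
Esr1 (start 2): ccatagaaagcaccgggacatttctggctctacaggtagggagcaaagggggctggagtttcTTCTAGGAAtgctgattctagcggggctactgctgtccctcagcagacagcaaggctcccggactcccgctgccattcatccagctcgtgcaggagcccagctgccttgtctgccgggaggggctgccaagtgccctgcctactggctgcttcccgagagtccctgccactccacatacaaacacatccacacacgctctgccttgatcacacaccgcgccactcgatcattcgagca
Cited1 (start 3): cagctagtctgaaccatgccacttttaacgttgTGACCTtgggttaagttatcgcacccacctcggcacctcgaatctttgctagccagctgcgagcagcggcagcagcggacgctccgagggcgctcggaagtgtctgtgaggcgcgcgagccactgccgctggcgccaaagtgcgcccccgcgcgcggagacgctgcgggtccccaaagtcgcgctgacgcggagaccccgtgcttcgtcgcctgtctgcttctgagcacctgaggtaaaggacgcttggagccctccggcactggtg
Prom1 (start 2): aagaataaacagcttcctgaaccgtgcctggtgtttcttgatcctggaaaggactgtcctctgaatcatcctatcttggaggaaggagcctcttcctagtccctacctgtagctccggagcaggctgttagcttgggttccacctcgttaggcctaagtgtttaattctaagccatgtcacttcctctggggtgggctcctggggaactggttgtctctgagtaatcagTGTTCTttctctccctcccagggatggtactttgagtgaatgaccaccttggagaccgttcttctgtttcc
Among 32851 RefSeq promoter windows of this length, the forkhead core occurs in 3.65%, the oestrogen half-site in 16.3%, the progesterone half-site in 19%, the T-box half-site in 3.98%, the STAT5 motif in 8.3% and the GATA motif in 11.2%. The Pgr window on chromosome 9 (chr9:8899583-8899882, plus strand) and those at start 1 of Esr1, Cited1 and Prom1 and at start 2 of Cited1 hold none of the 6. A match is a string of letters and not evidence of binding, and the array does not tell which start a transcript used.

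The arrays were similar in detection and median intensity, but not in agreement within groups. The share of probes detected above negative controls was 34.8% to 42.3% per array, the median raw intensity 105 to 165 units, and the correlation between arrays of a group 0.908 to 0.99. Levels are given below as log2 of normalised intensity. The arrays sat on 4 chips: 1 held virgin MaSC-enriched replicate 2 alone, luminal arrays of both states shared each of the other 3, and MaSC-enriched arrays of both states shared chip 4 only. All 6 genes had a probe detected on at least 3 arrays. Prom1 passed that filter through its 3 virgin luminal arrays alone, and Pgr through the same 3 and 1 pregnant MaSC-enriched array, so these genes had to differ between groups to be tested at all.

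The first comparison asked how the hormone-sensing transcripts of luminal cells change in pregnancy. All 6 were lower at day 12.5 than in virgin luminal cells, with fitted log2 differences from -2.13 to -3.86, and in each of the 6 the virgin and pregnant arrays did not overlap. For Pgr and Prom1 this was largely set by the detection filter, which they passed through the virgin luminal arrays. The comparison with all genes therefore rests on Esr1, Foxa1, Cited1 and Tbx3. Among all 11350 genes tested, 10.7% were lower and 10.9% higher at the same threshold (adjusted p below 0.05, limma), and 33.8% had groups that did not overlap. The median difference was -3.08 over the 6 genes (-2.93 with Pgr and Prom1 at the bounds given below) and 0.05 over all genes.

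Esr1 was at 10.61, 10.81 and 10.65 on the virgin luminal arrays and at 8.37, 8.19, 8.04 and 7.78 on the pregnant ones. Every pregnant array lay below every virgin array, and Esr1 remained detected on all of them. The difference was -2.60 (SE 0.20, adjusted p = 4.51e-07 by limma), a 6.06-fold fall from 10.69 ± 0.10 (SD, n = 3) to 8.09 ± 0.25 (n = 4).

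Pgr was at 9.35, 7.94 and 7.21 in virgin luminal cells, the widest spread of the 6 genes in that group. On the pregnant luminal arrays it was at 5.33, 5.62, 5.13 and 4.97, and no array detected it. Pgr was therefore at least 4.93-fold lower in pregnancy, a bound set by the dimmest detected probes of each array (log2 difference -2.90, SE 0.37, adjusted p = 5.88e-05). The p-value is not separate evidence, because the filter admitted Pgr through these virgin luminal arrays. Without virgin luminal replicate 1, the array with the highest Pgr, the fitted difference was -2.31 (adjusted p = 8.29e-05). The bound uses the same virgin luminal mean, so it too is smaller without that array, and it was not recomputed.

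Foxa1 had the largest fitted difference of the 6, of which those of Pgr and Prom1 are bounds. It was at 12.78, 13.44 and 11.88 on the virgin luminal arrays and at 9.42, 9.42, 8.15 and 8.35 on the pregnant ones, with the groups well apart. The fall was 14.5-fold (log2 -3.86, SE 0.41, adjusted p = 9.43e-06) and ranked 65 from the lowest among 11350 genes.

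Cited1 was at 11.43, 12.48 and 11.98 in virgin and at 8.60, 9.06, 7.95 and 8.61 in pregnant luminal cells. It stayed detected on every luminal array while falling 10.6-fold (log2 -3.41, SE 0.32, adjusted p = 2.56e-06). Tbx3 was at 11.56, 11.70 and 11.22 in virgin cells and at 8.38, 8.28, 7.93 and 8.36 in pregnant cells. Arrays within each state lay close together for Tbx3, and the fall was 9.53-fold (log2 -3.25, SE 0.34, adjusted p = 9.43e-06). Their differences ranked 104 and 116 from the lowest.

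Prom1, whose product lies on membrane protrusions, was at 7.36, 6.59 and 6.82 on the virgin luminal arrays. It was detected on no other array of the study, with 4.74, 4.89, 4.85 and 4.67 on the pregnant luminal ones. The raw intensity of its probe ran from 191.4 to 349.5 in virgin luminal cells and from 91.2 to 129.6 in pregnant luminal cells. Prom1 was at least 2.08-fold lower in pregnancy (log2 -2.13, SE 0.20, adjusted p = 2.38e-06). Its p-value is not separate evidence, because the filter admitted Prom1 through the virgin luminal arrays alone. The difference of Esr1 ranked 199 from the lowest, and Pgr and Prom1 are given no rank because they have bounds.

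**Figure D1:**
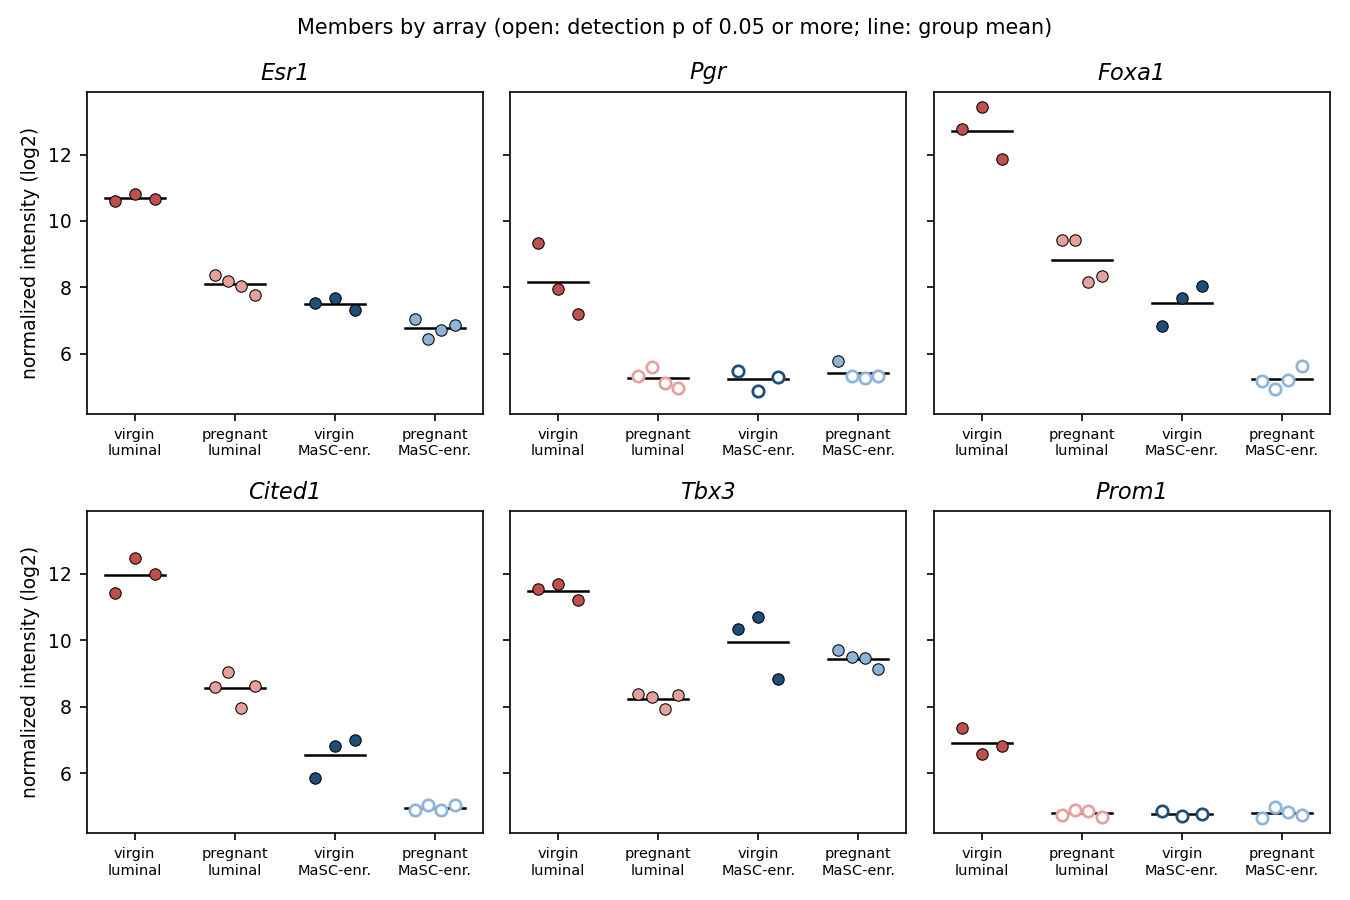
Normalised intensity (log2, vertical axis) of the 6 genes on each of the 14 arrays, by group, with a line at the group mean and open points where the detection p was 0.05 or more. In virgin luminal cells Foxa1 lies between 11.88 and 13.44 and Esr1 between 10.61 and 10.81, above all other arrays of these genes, and Prom1 is detected in that group alone.

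The falls in luminal cells were present on each chip that held both states. Within chips 1, 3 and 4 the Esr1 difference was -2.34, -2.78 and -2.87, and it was -2.63 with chip as a fixed block. For Pgr the values within the 3 chips were -3.87, -2.81 and -2.24, with -3.03 in the block fit. Foxa1 differed by -3.36, -5.29 and -3.52 within the chips and by -3.91 in the block fit. Chip 3 thus gave the largest Foxa1 difference, and the same chip gave the largest for Cited1, with -2.60, -4.53 and -3.37 within the chips and -3.37 in the block fit. Tbx3 differed by -3.23, -3.77 and -2.85, and by -3.32 with the block. Prom1 differed by -2.54, -1.74 and -2.15, and by -2.18 with the block. All 18 differences within chips were negative.

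The second comparison asked the same of the MaSC-enriched population. Foxa1 and Cited1 were lower in pregnancy and the other 4 genes did not pass the threshold. Of all genes, 2.29% were lower and 2.78% higher at that threshold, and groups did not overlap for 16.5% of genes and for 3 of the 6. The median difference was -0.62 over the 6 genes and 0.03 over all genes.

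Foxa1 was at 6.84, 7.67 and 8.04 on the virgin MaSC-enriched arrays, all of which detected it. On the pregnant ones it was at 5.19, 4.95, 5.21 and 5.65, and none detected it. This was a fall of at least 3.62-fold (log2 -2.27, SE 0.41, adjusted p = 0.00485), and within chip 4 the difference was -2.40. With chip as a fixed block, which takes virgin MaSC-enriched replicate 2 out of the comparison, the difference was -2.02 and the call ended (adjusted p = 0.0626).

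Cited1 followed the same course, at 5.86, 6.81 and 7.0 in virgin and 4.88, 5.03, 4.88 and 5.03 in pregnant MaSC-enriched cells. Every virgin array and no pregnant array detected it, a fall of at least 1.86-fold (log2 -1.60, SE 0.32, adjusted p = 0.00894). The difference within chip 4 was -1.97, and the chip block gave -1.49 (adjusted p = 0.061). Both calls also ended without background correction (Foxa1 -1.11, adjusted p = 0.0781, and Cited1 -0.71, adjusted p = 0.0995), and that of Cited1 with array weights (-1.39, adjusted p = 0.0811).

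Esr1 was at 7.54, 7.68 and 7.31 in virgin and at 7.06, 6.45, 6.72 and 6.88 in pregnant MaSC-enriched cells. The arrays did not overlap, but the difference of -0.74 missed the threshold (SE 0.20, adjusted p = 0.0527), and it was -0.44 within chip 4 and -0.59 with the block. It passed without a filter on dim probes (adjusted p = 0.0443), with a stricter filter (0.044) and without pregnant luminal replicate 4 (0.0402).

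Tbx3 was detected on every MaSC-enriched array, at 10.35, 10.70 and 8.82 in virgin and 9.70, 9.49, 9.48 and 9.13 in pregnant cells. The virgin arrays spanned the pregnant ones, and the difference was -0.51 (SE 0.34, adjusted p = 0.467). It was -0.09 in the block fit and 0.31 within chip 4, where virgin replicate 3 was set against a single pregnant array. Without virgin MaSC-enriched replicate 3, the lowest of its group, Tbx3 was lower in pregnancy by a called difference of -1.07 (adjusted p = 0.0173).

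Pgr was detected on 1 of the 7 MaSC-enriched arrays and Prom1 on none. Pgr was at 5.49, 4.88 and 5.32 in virgin and 5.79, 5.33, 5.29 and 5.34 in pregnant cells, the first of these 4 being the detected one. Prom1 lay between 4.65 and 4.99 on all 7 arrays. With both states at or below detection a fall could not be measured.

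**Figure D2:**
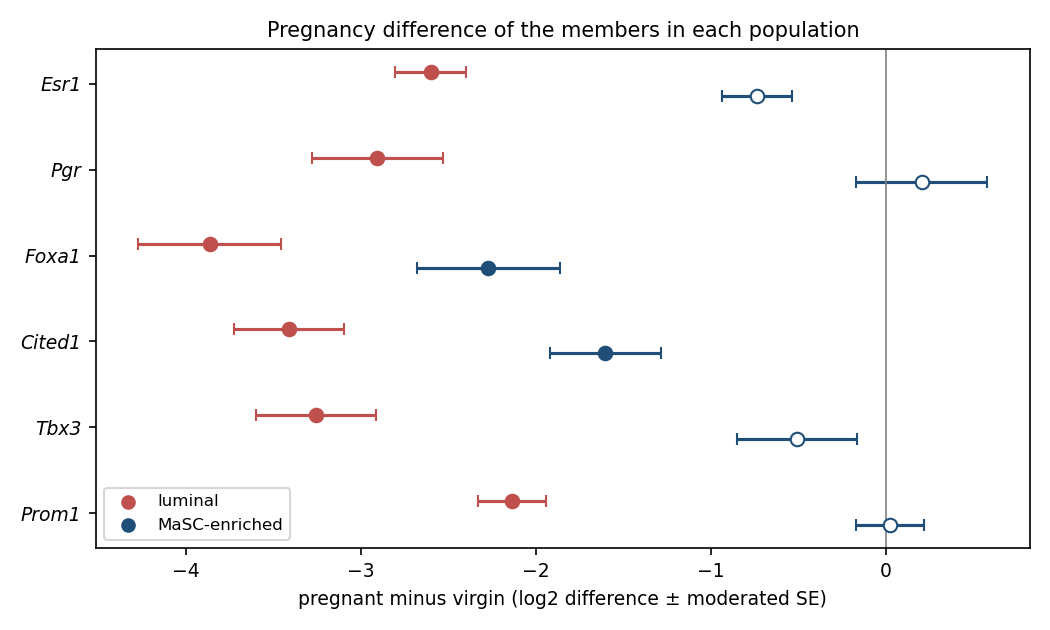
Difference between pregnant and virgin cells (log2, horizontal axis, with the moderated standard error) of the 6 genes in luminal and in MaSC-enriched cells, filled where the adjusted p was below 0.05. Luminal differences run from -3.86 to -2.13 and all are filled, while Foxa1 (-2.27) and Cited1 (-1.60) are the filled MaSC-enriched ones.

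Whether pregnancy changed these transcripts by a different amount in both populations was tested as an interaction, the MaSC-enriched difference minus the luminal one. It was positive and past the threshold for 5 of the 6 genes, against 5.26% of all genes with a positive and 3.36% with a negative called interaction. Pgr and Prom1 are in that count after a filter that they passed through their virgin luminal signal. A positive value stands for a larger fitted fall in luminal cells. The brightest probes of Esr1 and Tbx3 were detected on all 14 arrays, so by these probes the luminal fall was the larger. The interaction was 3.11 for Pgr (SE 0.53, adjusted p = 0.00192), 2.75 for Tbx3 (0.49, 0.00262), 2.16 for Prom1 (0.28, 0.000237), 1.86 for Esr1 (0.28, 0.000919) and 1.81 for Cited1 (0.45, 0.0221). For Pgr and Prom1 the MaSC-enriched term was a difference between values at or below detection, and for Cited1 the pregnant MaSC-enriched level was below detection and its fall a bound, so for these 3 genes the interaction does not show a larger luminal fall. The Cited1 call ended without virgin luminal replicate 2 (1.55, adjusted p = 0.0654) and in the fit with the chip block (1.88, adjusted p = 0.05), and the Pgr value was 2.52 without virgin luminal replicate 1 (adjusted p = 0.00143).

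Foxa1 was the exception, with an interaction of 1.59 that missed the threshold (SE 0.58, adjusted p = 0.117), which does not show that it fell alike in both populations. It passed with a background offset of 50 (2.16, adjusted p = 0.0176), with the deposited log2 values (2.16, adjusted p = 0.0178), without background correction (2.47, adjusted p = 0.00443) and without virgin luminal replicate 3 (2.00, adjusted p = 0.0395). Its fitted value in pregnant MaSC-enriched cells lay below detection.

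The third comparison set MaSC-enriched against luminal cells of the same state. In virgin mice all 6 transcripts were lower in MaSC-enriched cells, against 16.5% of all genes lower and 15.5% higher, and the groups did not overlap for any of the 6, against 37.7% of genes. For Pgr and Prom1 the filter, passed through the virgin luminal arrays, largely set this outcome. Cited1 differed by -5.41 (SE 0.34, adjusted p = 1.7e-08), a 42.4-fold lower level that ranked 8 from the lowest of 11350 genes. Foxa1 was 36.3-fold lower (log2 -5.18, adjusted p = 3.15e-07) and Esr1 9.07-fold lower (-3.18, adjusted p = 3.81e-08). Pgr was at least 5.70-fold lower (fitted log2 -2.93) and Prom1 at least 2.41-fold lower (-2.14). Without virgin luminal replicate 1 the fitted Pgr difference was -2.34, and its bound is then smaller too. Tbx3 differed by -1.54 (SE 0.37, adjusted p = 0.0052). These differences and those of luminal pregnancy share the virgin luminal arrays. Within chips 1 and 4, which held both populations of virgin mice, the differences were -5.57 and -4.98 for Cited1, -5.94 and -3.83 for Foxa1, and -1.21 and -2.39 for Tbx3.

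In pregnant mice the 6 genes no longer lay on the same side. Esr1, Foxa1 and Cited1 were lower in MaSC-enriched cells, and Tbx3 was higher. Of all genes, 23% were lower and 20.1% higher in that comparison, and groups did not overlap for 50% of genes and for 4 of the 6. Cited1 was at least 7.42-fold lower (log2 -3.60, adjusted p = 1.46e-07), Foxa1 at least 9.03-fold lower (-3.59, adjusted p = 2.24e-06) and Esr1 2.49-fold lower (-1.32, adjusted p = 4.52e-05). By its brightest probe, Tbx3 was 2.31-fold higher in MaSC-enriched than in luminal cells of pregnant mice (9.45 ± 0.24 against 8.24 ± 0.21, n = 4 each, difference 1.21, SE 0.32, adjusted p = 0.00692). Not all Tbx3 probes passed, as given below. The Tbx3 difference was positive on chip 3 (1.62) and chip 4 (0.77). Pgr and Prom1 differed by 0.18 and 0.02 between values at or below detection.

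The order of the 4 groups was therefore not the same for all genes. Esr1, Foxa1 and Cited1 ran from virgin luminal through pregnant luminal and virgin MaSC-enriched to pregnant MaSC-enriched cells. For Esr1 the 3 lower groups were close, at 8.09 ± 0.25, 7.51 ± 0.19 and 6.78 ± 0.26, and their arrays did not overlap. Foxa1 had means of 12.70, 8.84, 7.52 and 5.25 and Cited1 means of 11.96, 8.55, 6.56 and 4.96 in that order, and the arrays of pregnant luminal and virgin MaSC-enriched cells did not overlap for either gene. That pair of groups was not compared by a test. Tbx3 was lowest in pregnant luminal cells, and its virgin (9.96 ± 1.00) and pregnant MaSC-enriched arrays overlapped. Pgr and Prom1 stood above background in virgin luminal cells, and their other 3 groups overlapped. All 6 genes were thus higher in luminal cells of virgin mice, as their label has it. In pregnant mice this held for Esr1, Foxa1 and Cited1, while Tbx3 was higher in MaSC-enriched cells by its brightest probe. Pgr and Prom1 lay at or below detection in both populations of pregnant mice.

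Where several probes carried a symbol, they are shown together. The 4 Tbx3 probes all fell in pregnant luminal cells, by called differences of -3.25, -3.49, -3.10 and -1.26. In MaSC-enriched cells 1 of the 4, with a group mean of 6.81 in virgin and 5.59 in pregnant cells, was lower in pregnancy (-1.22, adjusted p = 0.035), while the other 3 did not pass (-0.51, -0.35 and -0.29). Between populations of pregnant mice the 4 probes differed by 1.21, 1.36, 0.45 and 0.22, in the order of the luminal falls. The last 2 did not pass by limma (adjusted p = 0.234 and 0.499), and their arrays overlapped. No pregnant array of either population detected the last probe, so its 0.22 lies between values below detection. The last probe also missed the threshold between virgin populations (-0.75, adjusted p = 0.0542) and in the interaction (0.97, adjusted p = 0.132). Both Pgr probes fell in luminal cells (-2.90 and -1.75). The second was detected on the 3 virgin luminal arrays alone, through which it passed the filter. Its fall is a bound of at least 1.63-fold and not separate evidence. Of 4 Esr1 probes, 1 gave the values above, a second lay near background (5.78 in virgin luminal cells) and did not pass (-0.37, adjusted p = 0.524), and the other 2 were detected on no array. Of 3 Prom1 probes, 2 were likewise detected nowhere, so all Prom1 values rest on 1 probe. The silent probes include 1 for Prom1 annotated with a RefSeq transcript (4.81 in virgin luminal cells), unlike the reported Prom1 probe. They also include 1 for Esr1 annotated with the same RefSeq transcript as the reported Esr1 probe (4.72). Foxa1 and Cited1 had a single probe each.

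**Figure D3:**
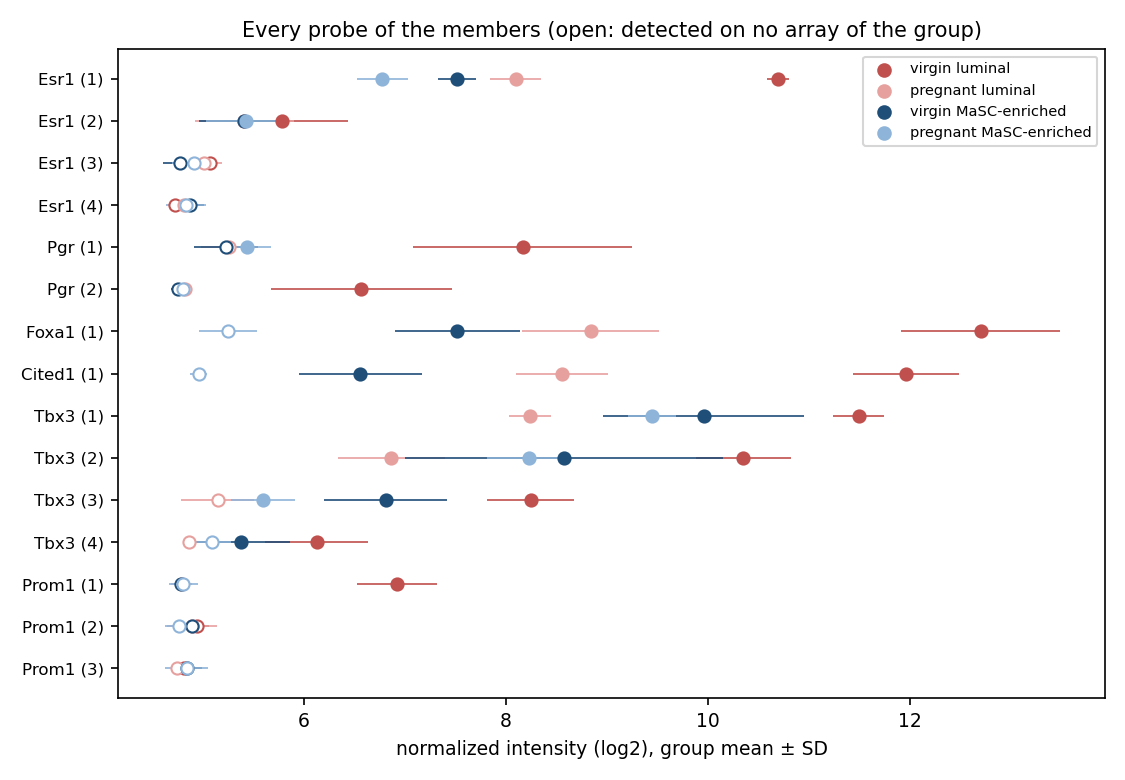
Group mean and SD (log2 normalised intensity, horizontal axis) of all 15 probes of the 6 genes, open where no array of the group detected the probe. The 4 Tbx3 probes keep virgin luminal cells highest, and 2 Esr1 and 2 Prom1 probes lie at background in every group.

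Gene lists around the receptors were compared with the 6 genes in luminal pregnancy, where 10.9% of all genes were higher and 10.7% lower, and the median of all genes was 0.05. Of 7 tested hormone receptors and binding partners, 1 rose and 1 fell (median 0.12). Fkbp4, a cochaperone of steroid receptors, rose by 0.82 (adjusted p = 0.0145). It no longer passed without virgin luminal replicate 2 (0.69, adjusted p = 0.0753) or with median scaling (adjusted p = 0.101). Pgrmc1, a haem-binding membrane protein, fell by 1.05 (adjusted p = 0.00452). Of 10 steroid receptor coregulators, Cited4 alone passed (median -0.05). Esr2, the second oestrogen receptor, was not tested because its 3 probes were too dim, and no probe used here was named for Prlr.

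Of 11 factors listed for hormone-sensing and luminal lineages, 2 rose and 3 fell (median -0.09). The list was not luminal as a whole in these data. Against luminal cells, 4 were higher and 3 lower in MaSC-enriched cells of virgin mice, and 5 higher and 1 lower in pregnant mice. Of all genes, 15.5% were higher and 16.5% lower in virgin mice, and 20.1% higher and 23% lower in pregnant mice. In luminal pregnancy Runx1 fell by 2.41 (adjusted p = 0.000151), and Spdef, an ETS factor, by 1.77, to a level that 1 of 4 pregnant arrays detected (adjusted p = 0.000158). Apart from that array Spdef was detected on the 3 virgin luminal arrays alone. Its p-value is not separate evidence, because the filter admitted Spdef through these virgin luminal arrays. The AP-2 factor Tfap2b fell by 1.40 (adjusted p = 0.00773), a call lost without virgin luminal replicate 2 (-1.10, adjusted p = 0.0512), and Lmo4, a LIM-only cofactor, rose by 1.36 (adjusted p = 0.00328). Gata3, the main regulator of luminal identity, differed by -0.49 (adjusted p = 0.284), from 12.59 in virgin to 12.10 in pregnant luminal cells.

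Of 14 tested oestrogen and progesterone targets, 1 rose and 5 fell (median -0.33). Stc2, a secreted glycoprotein induced by oestrogen in human breast cancer cells, fell 55.9-fold (log2 13.54 to 7.74, difference -5.81, SE 0.33, adjusted p = 2.28e-08). Fgfr2, a receptor of fibroblast growth factors, fell by 4.57 (adjusted p = 4.53e-08) and the small heat shock protein gene Hspb1 by 2.10 (adjusted p = 6.24e-05). Tnfsf11, which encodes the RANK ligand through which progesterone acts on neighbouring cells, went the other way and rose 12.9-fold (3.69, SE 0.36, adjusted p = 3.73e-06). Of the other progesterone-driven ligand, Wnt4, the difference was -0.83 (adjusted p = 0.0597), a value that passed under several alternatives, among them median scaling (0.00858), an offset of 50 (0.0315) and the chip block (0.025). Greb1, an oestrogen receptor cofactor and target, differed by -0.11 and was detected on 1 of the 7 luminal arrays.

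Of 13 genes in the list of surface and secreted markers, 1 rose and 5 fell (median -0.84). This list also holds the keratins Krt8, Krt18 and Krt19, which with Cldn3 are among the general luminal markers below. Wnt5a, a Wnt ligand, fell by 4.87 (adjusted p = 7.03e-07), the water channel Aqp5 by 4.04 (adjusted p = 1.41e-07), the vesicle protein Sytl2 by 2.78 (adjusted p = 0.00258) and Prom2, the paralogue of Prom1, by 1.46 (adjusted p = 0.000675). Of 11 genes of the alveolar and luminal progenitor counterpart, 1 rose and 2 fell (median 0.04). The milk protein gene Wap rose by 3.68 (adjusted p = 0.000132, or by 4.48 without virgin luminal replicate 1). Aldh1a3, an enzyme that marks luminal progenitors, fell by 1.96 (adjusted p = 0.00576). Cd14 fell by 1.09 (adjusted p = 0.0202), and it missed the threshold without any 1 of the virgin luminal replicates (adjusted p = 0.0561, 0.0528 and 0.0603) or pregnant luminal replicate 4 (0.0527). Elf5, the factor that directs alveolar differentiation, and Kit, a progenitor receptor, differed by 1.26 (adjusted p = 0.0573) and 0.19, and Elf5 passed under several alternatives, among them array weights (0.00897), the chip block (0.0309) and the replicate block (0.0219). In the MaSC-enriched population Stc2 fell by 1.38 (adjusted p = 0.0289) and Aqp5 by 1.55 (adjusted p = 0.00485), while Tnfsf11 differed by 0.09. Both falls missed the threshold without background correction (adjusted p = 0.0738 for Stc2 and 0.0773 for Aqp5) and in the chip block fit (0.109 and 0.0568). Stc2 also missed it without a filter on dim probes (0.0685), with array weights (0.0964), without virgin MaSC-enriched replicate 2 or 3 (0.0537 and 0.106) and without pregnant MaSC-enriched replicate 1, 2 or 3 (0.0736, 0.0715 and 0.0775).

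**Figure D4:**
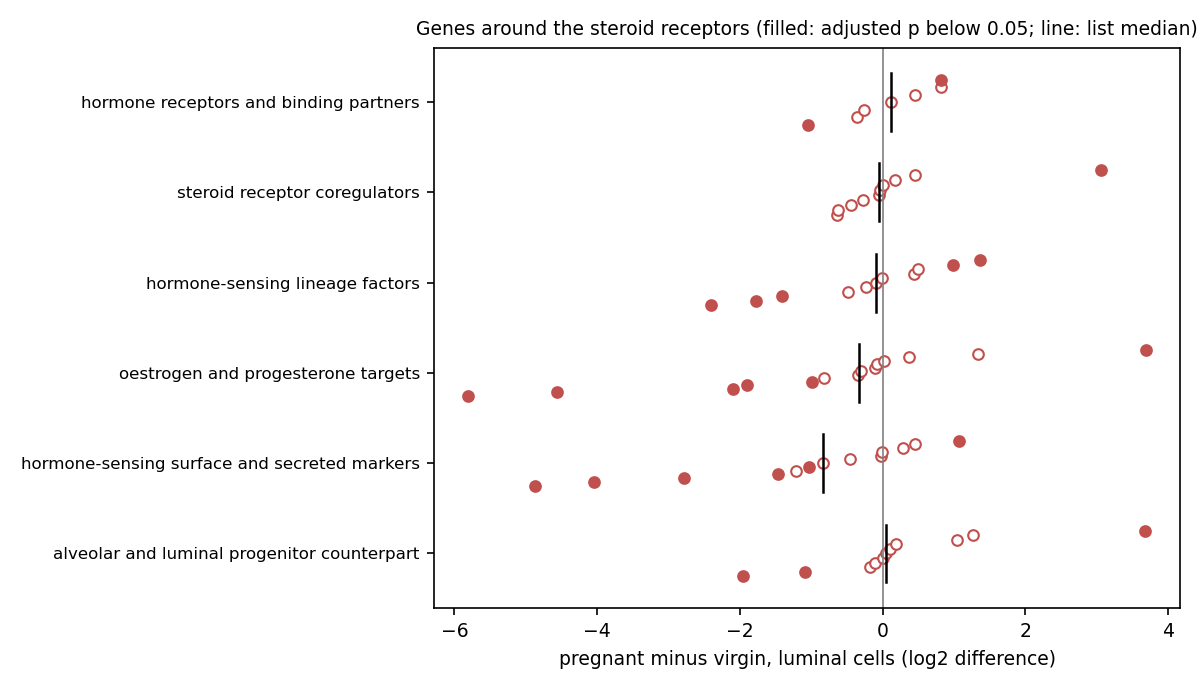
Difference between pregnant and virgin luminal cells (log2, horizontal axis) of every tested gene of 6 lists around the receptors, filled where the adjusted p was below 0.05, with a line at each list's median. List medians run from -0.84 (surface and secreted markers) to 0.12 (receptors and binding partners), and the filled points spread to both sides, from Stc2 at -5.81 to Tnfsf11 at 3.69.

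Markers of other cells moved in the luminal population at the same time. Of all genes, 10.9% were higher and 10.7% lower in that comparison. Of 6 tested basal markers 4 were higher in pregnancy (median 1.70), with Krt14 higher by 2.31 and Myh11 by 1.93, and their summed level ran from log2 12 to 14.4 on virgin and from 14.8 to 15.1 on pregnant luminal arrays, against 16.3 to 16.7 in MaSC-enriched cells. The basal keratin Krt5 was detected on none of the 7 luminal arrays. Of 5 leukocyte markers 2 were higher (median 1.07), Cd74 by 1.82 (adjusted p = 0.00478) and Cd52 by 1.25 (adjusted p = 0.0363), with summed levels of 9.33 to 9.78 and 10.6 to 11.3. Of 6 fibroblast markers Col1a1 was higher by 1.49 (adjusted p = 0.0373) and Dcn lower by a called difference of -2.32 (adjusted p = 0.000975), with sums of 13.6 to 14.9 and 11.6 to 13.7. The calls of Cd52 and Col1a1 were lost without virgin luminal replicate 3 or pregnant luminal replicate 3 or 4, and also without virgin luminal replicate 2 for Cd52 and replicate 1 for Col1a1. They were also lost under several other settings, among them median scaling (adjusted p = 0.165 and 0.184) and the replicate block (0.0884 and 0.0983). Of 4 endothelial markers 0 passed by limma in luminal pregnancy, and 0 had an unadjusted p below 0.05. Between populations of pregnant mice all 4 were higher in MaSC-enriched cells (median 1.38), against 20.1% of all genes. There 1 of 6 fibroblast markers (median 1.31) and 1 of 5 leukocyte markers (median 0.05) were also higher, and 0 of these 3 lists were lower. In virgin mice 0 of the 4 endothelial markers passed (median 1.26). General luminal markers did not pass in luminal cells, with 0 of 6 called by limma, 3 at an unadjusted p below 0.05, and summed levels of 16.6 to 16.7 in virgin and 16.4 to 16.7 in pregnant cells. The keratins Krt8 and Krt18 differed by 0.46 and -0.46. In pregnant MaSC-enriched cells 2 of the 6 luminal markers were higher, Elf5 by 3.41 and Cldn3 by 1.61, against 2.78% of all genes, and the Cldn3 call was lost with the chip block (1.26, adjusted p = 0.0689). There 1 of 5 leukocyte markers was also higher, Cd3e by 1.57 (adjusted p = 0.0251), which missed the threshold without pregnant MaSC-enriched replicate 2, 3 or 4 (0.0672, 0.0595 and 0.076), with the chip block (0.0507), without a filter on dim probes (0.0649), with array weights (0.108) and with the mean of its probes (0.16). The part of these cells in the differences of the 6 genes was not tested. The basal calls depended on single virgin luminal arrays. Krt14 was higher by 1.49 without virgin luminal replicate 2, and Acta2, Mylk and Myh11 were higher by 2.34, 2.72 and 2.69 without replicate 1. Acta2 did not pass without replicate 2 or 3 (adjusted p = 0.104 and 0.0976), nor did Mylk (0.0973 and 0.0794). Acta2 also missed the threshold without a filter on dim probes (0.0504). With array weights Acta2, Myh11 and Mylk did not pass (0.521, 0.122 and 0.266), and Mylk also missed the threshold with cyclic loess (0.053) and median scaling (0.0763).

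Relatives of the 6 genes were set beside them. Tbx2, the closest relative of Tbx3, was detected on no luminal array and on all 7 MaSC-enriched arrays, with differences between populations of 3.13 in virgin (adjusted p = 2.3e-07) and 3.47 in pregnant mice (adjusted p = 1.28e-08) and none past the threshold between states (-0.09 in luminal and 0.25 in MaSC-enriched cells). Foxa3, a forkhead factor related to Foxa1, was also higher in MaSC-enriched cells, by 3.45 in virgin (adjusted p = 7.09e-05, or 4.11 without virgin luminal replicate 3) and 2.47 in pregnant mice (adjusted p = 0.000292). Foxa2 was too dim to be tested.

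Of the relatives of Cited1, Cited4 rose in both populations in pregnancy. Its level went from 10.29 to 13.35 in luminal cells (difference 3.06, SE 0.34, adjusted p = 1.29e-05) and from 6.49 to 10.55 in MaSC-enriched cells (4.06, SE 0.34, adjusted p = 1.76e-05). Cited4 thus rose where Cited1 fell, and its interaction did not pass (1.00, adjusted p = 0.24). Cited2 had a mean of 11.49 in both luminal groups, with 11.25 and 11.62 in virgin and pregnant MaSC-enriched cells, and no comparison of it passed. Prom2 was detected on every array and differed in the same direction as Prom1, by -1.39 between MaSC-enriched and luminal cells of virgin mice (adjusted p = 0.000987).

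The profiles of the 6 genes were also compared with those of all genes tested, by the root mean square distance between log2 profiles over the 14 arrays, each centred on its own mean. This is a description, since genes share the same arrays. The nearest genes are the smallest distances by choice, so the medians over all genes given beside them are a scale and not a test. Among the 6 genes, Foxa1 and Cited1 were closest (0.47), followed by Pgr and Prom1 (0.48), and Foxa1 and Tbx3 were farthest apart (2.35). Pgr and Prom1 lay at or near background outside virgin luminal cells, which by itself brings their profiles together. The 3 genes nearest to Esr1 were Manba, a lysosomal mannosidase (0.34), the aldo-keto reductase Akr1c12 (0.41) and the villin-like gene Vill (0.41), against a median distance of 1.49 over all genes. Nearest to Pgr were Lce6a, Tmed3 and Dpep2 (0.40 to 0.42, median 1.36), of which Lce6a and Dpep2 were detected in virgin luminal cells alone. Nearest to Foxa1 were the arginase gene Arg1 (0.26), the chemokine gene Cxcl15 (0.47) and Aqp5 (0.54), with a median of 2.71. Arg1 had group means of 12.60, 8.20, 7.13 and 4.94 in the order in which Foxa1 fell. Nearest to Cited1 were the protease gene Tmprss2 (0.43), Cdo1 (0.50) and Dkkl1 (0.54), with a median of 2.59. Nearest to Tbx3 were Hs3st6, the homeobox gene Meis1 and Garnl3 (0.38 to 0.45, median 1.36), and Meis1 was, like Tbx3, lowest in pregnant luminal cells (7.67, against 9.40 to 10.71). Nearest to Prom1 were Reg3b, Sgms1 and Nrxn2 (0.20 to 0.25, median 1.02), and Reg3b and Nrxn2 were detected in virgin luminal cells alone.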

How the data were processed

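RNA of 14 sorted cell preparations was labelled with Cy3 and measured on single-colour Illumina BeadChips. The authors deposited a table of raw probe intensities without normalisation, in the arbitrary units of the scanner. Each intensity comes with a detection p-value, which the authors' BeadStudio step supplies per the submitters' processing notes. The deposited log2 values were background corrected and quantile normalised, as judged from the values: a background offset of 50 gave values within 0.0172 of them. Versions of BeadStudio and limma are not given in the sources used here.

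Intensities were background corrected with limma 3.58.1 (R 4.3.3) by the normexp model with the background taken from detection p-values and an offset of 16, quantile normalised and taken to log2. The 20906 probes with a detection p below 0.05 on at least 3 arrays were tested. Platform symbols were used, and 10378 probes had none and 18 several. For each gene the brightest tested probe, by its mean over all arrays, was taken. A model of 4 group means over 14 arrays was fitted with empirical Bayes moderation (10 residual degrees of freedom), with 5 comparisons and Benjamini-Hochberg adjustment over all tested probes, two-sided, at 0.05. The fit was tested on simulated data with independent normal noise. These had no detection floor or chip effect, so the test says nothing about those limits. Where no array of a group detected a probe, the fold is a bound, set against the dimmest detected value of each array. Arrays give no depth, and their number limits the precision. Alternatives were other background, offset, normalisation, filter, probe and array weight settings, chip and replicate as blocks, and leaving out each array.

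The 6 genes and all gene lists were chosen with earlier results of these data known. Named besides the 6 genes were the 3 nearest profiles of each, up to 4 genes of each list with the largest called luminal difference, and a fixed set of relatives and markers, of which Areg, Prlr and Ly6a had no named probe here. Cldn3 and Cd3e were named after their values were seen.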

Additional observations from a re-analysis of the deposited data

Results flagged for a closer look

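The fitted pregnancy difference was not the same in both populations for 5 of the 6 genes, by the interaction test of limma. Of all genes, 5.26% had a positive and 3.36% a negative called interaction. The values of the 5 genes, MaSC-enriched minus luminal, were 1.86 for Esr1, 3.11 for Pgr, 1.81 for Cited1, 2.75 for Tbx3 and 2.16 for Prom1. For Pgr and Prom1 the MaSC-enriched groups of both states lay at or below detection, and for Cited1 the pregnant one did, so for these 3 genes the MaSC-enriched change has a bound or no measured value and a larger luminal fall is not shown. In every one of these 5 genes all pregnant luminal arrays were below all virgin luminal arrays. The luminal groups did not overlap, in either direction, for 33.8% of all genes. For Pgr and Prom1 the filter, passed through the virgin luminal arrays, largely set this outcome.

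Pgr on pregnant MaSC-enriched replicate 1 stood apart from the other 3 arrays of its group, at 5.79 against 5.29 to 5.34, by Dixon's criterion. It was the single array outside the virgin luminal group with a detection p below 0.05 for this probe (0.0289). Chance alone sets apart an extreme value in about 1 in 20 groups.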

How the results depend on the processing

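All luminal falls and all virgin population differences of the 6 genes kept their direction and their call under every alternative in which they were tested, and the numbers called were 6, 6 and, between populations in pregnancy, 4 with any 1 array left out. Leaving out each array gave 4 to 6 called interactions (5 as reported) and 2 to 3 called MaSC-enriched pregnancy differences (2 as reported). The latter count was 0 by limma without background correction, 1 with array weights and 0 with chip as a block, and in both fits that gave 0 an unadjusted p below 0.05 was found for 3 of the 6 genes. The stricter filter (detection p below 0.01 on at least 6 arrays) left Pgr and Prom1 untested and gave 3 interactions. Over the alternatives the adjusted p of MaSC-enriched pregnancy ran from 0.0029 to 0.0781 for Foxa1, 0.00277 to 0.0995 for Cited1, 0.0402 to 0.401 for Esr1 and 0.0173 to 0.914 for Tbx3, and that of the interaction from 0.000378 to 0.0654 for Cited1 and 0.00443 to 0.283 for Foxa1. Without background correction the luminal falls of the dim probes shrank, to -1.58 for Pgr and -1.01 for Prom1, and averaging the probes of Esr1, with its dim second probe, gave -1.49. The cause was not tested for the other changes.

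Median scaling moved the median of all probes in luminal pregnancy from 0.05 to -0.17 and the called probes from 2024 higher and 2038 lower to 795 and 2327. In MaSC-enriched pregnancy it moved 520 higher and 414 lower to 250 and 381 (median 0.03 to -0.06), and in the interaction 979 and 585 to 808 and 270 (median -0.02 to 0.12). Between populations of pregnant mice 3792 higher and 4458 lower became 3603 and 2876, or 4188 and 3547 with cyclic loess. With median scaling the luminal differences of the 6 genes ran from -2.18 (Prom1) to -4.10 (Foxa1), against that median of -0.17. Array weights raised the luminal calls to 4990 higher and 4241 lower, and chip as a block changed them to 2604 and 2459.

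Small differences that did not pass changed sign. Leaving out each array gave -0.037 to 0.077 for Prom1, -0.089 to 0.20 for Tnfsf11 and -0.020 to 0.49 for Tbx2 in MaSC-enriched pregnancy, and -0.37 to 0.12 for Greb1, -0.077 to 0.41 for Kit, -0.20 to 0.046 for Tbx2 and -0.18 to 0.32 for Cited2 in luminal pregnancy. Between populations it gave -0.047 to 0.067 for Prom1 in pregnant and -0.65 to 0.079 for Cited2 in virgin mice. With array weights the differences of Pgr and Prom1 between pregnant populations were -0.00938 and -0.00238, that of Tnfsf11 in MaSC-enriched pregnancy -0.021 and that of Krt5 in luminal pregnancy -0.13. Prom1 between pregnant populations was -0.13 with cyclic loess and -0.072 with median scaling, and Tbx2 in luminal pregnancy was 0.20 with cyclic loess. Cited2 in luminal pregnancy was -0.000865 without background correction, -9.8e-05 with offset 50, -0.087 with cyclic loess, -0.20 with median scaling and -0.0011 with the deposited values, and between pregnant populations it was -0.17 both with chip as a block and with the mean of its probes.

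The labels do not say that luminal and MaSC-enriched arrays with the same number come from the same pool, and numbers were therefore taken as names. The correlation of same-numbered deviations between populations was 0.05, 0.42 and 0.38 in virgin and -0.16, 0.00466, -0.16 and 0.09 in pregnant mice, and not every array correlated best with its own number. With that number as a replicate block all 5 counts of called genes were unchanged (6, 2, 6, 4 and 5), and the luminal Esr1 difference was -2.56. The arrays are few, probes near background (Pgr, Prom1 and the lower groups of Foxa1 and Cited1) have bounds in place of levels, and basal markers differed among the virgin luminal arrays.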

Other observations

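Among the virgin luminal arrays Esr1, Foxa1, Cited1 and Tbx3 were highest on replicate 2 (10.81, 13.44, 12.48 and 11.70), and Pgr and Prom1 on replicate 1 (9.35 and 7.36). The SD of that group was 1.09 for Pgr, 0.79 for Foxa1, 0.52 for Cited1, 0.40 for Prom1, 0.25 for Tbx3 and 0.10 for Esr1. In virgin MaSC-enriched cells Foxa1 and Cited1 were lowest on replicate 1 (6.84 and 5.86), and Tbx3 was lowest on replicate 3 (8.82). Nothing in these values was tested.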
